A study of Homo sapiens with 21 samples.

Results

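The human genes for heat shock proteins, DNAJ proteins, BAG cochaperones and PDIA protein disulfide isomerases were followed across 7 drug-resistant clones of Panc-1, a line of human pancreatic ductal carcinoma. The members were all protein-coding genes on chromosomes 1 to 22 or X whose symbol belongs to the HSPA, HSPB, HSPD, HSPE, HSPH, HSP90, DNAJA, DNAJB, DNAJC, BAG or PDIA series. The rule used names only and found 81 of the 58233 genes in the table. By the place assigned to their proteins, 45 were cytosolic or nuclear, 17 belonged to the endoplasmic reticulum, 8 to mitochondria, and 11 had another or a mixed place. The endoplasmic reticulum set was not split into members of its membrane and of its lumen. The symbols of 26 members began with DNAJC, 14 with HSPA, 12 with DNAJB and 8 with HSPB.

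Chaperones bind unfolded stretches of other proteins and release them in cycles driven by ATP. HSP70 proteins (HSPA genes) take substrates from J-domain proteins (DNAJ genes), which start ATP hydrolysis, and nucleotide exchange factors such as BAG and HSP110 proteins let the substrate go, in part to HSP90. The cytosolic set is switched on by the factor HSF1 when proteins unfold in the cytosol, whereas the endoplasmic reticulum has its own HSP70 (HSPA5), HSP90 (HSP90B1) and disulfide isomerases, which are switched on by the unfolded protein response. Carcinoma cells are known to lean on both systems.

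The libraries came from Panc-1 cultures that had been passaged in rising concentrations of ATUX, SMAP or Sorafenib and then cloned by limiting dilution. The series' design text names the drugs as activators of the phosphatase PP2A; Sorafenib is best known as a kinase inhibitor. Clones ATUX8H and ATUX9D grew in 8 µM ATUX, clones SMAP8D, SMAP9C and SMAP6G in 8 µM SMAP, and clones Sor6G and Sor9H in 8 µM Sorafenib, with 3 poly-A RNA-seq libraries for each clone and 21 in all. All groups carry a drug and are single-cell derived, and an untreated Panc-1 library was not analysed here, so that every difference below is one resistant group against another. Clones were picked with the help of qRT-PCR, per the labels' protocols, so they were chosen in part on expression. The clone was taken as the replicate of a drug (2 ATUX, 3 SMAP and 2 Sorafenib clones), and its p-values measure the spread between these picked clones. Whether the 3 libraries of a clone came from separate cultures is not in the labels, so a p-value that compares clones reflects only how far repeat libraries scatter, which may be technical.

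Total counts ran from 21022621 to 27691256 per library, and the 81 members took 1.04 to 1.57% of them. The third libraries of both ATUX clones stood apart for some members: HSP90AA1 was 1.41 and 1.2 times, and HSPA8 1.33 and 1.3 times, the mean of the first and second library in ATUX8H and ATUX9D. Of the defining markers of the labelled ductal epithelium, KRT8 (767 to 7098 CPM, the count as a share of the TMM-scaled library), KRT18, KRT19 and SOX9 were present in every library, and KRT7 was low at 4.56 to 31.7 CPM. Insulin, glucagon and CD3E had 0 counts in all 21 libraries, and the summed acinar, immune and endothelial markers reached at most 0.225, 0.779 and 1.40 CPM. Fibroblast markers summed to 9.81 to 183 CPM, nearly all from COL1A1, and their part in the results was not tested. In bulk RNA, fewer cells that express a gene and less of its RNA per cell cannot be told apart.

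Promoter windows of 5 members are shown because they hold, or lack, the sequence elements by which the cytosolic and the endoplasmic reticulum responses are usually read. Each runs from 250 bases before to 50 bases after the RefSeq start (GRCh38.p14), 5′ to 3′ on the gene's strand, and capitals mark a match. HSPA5 lies at chr9:125241294-125241593 on the minus strand, HSP90B1 at chr12:103930160-103930459 on the plus strand, HSPA8 at chr11:123062087-123062386 on the minus strand, DNAJA1 at chr9:33025023-33025322 on the plus strand and BAG3 at chr10:119651130-119651429 on the plus strand.
HSPA5: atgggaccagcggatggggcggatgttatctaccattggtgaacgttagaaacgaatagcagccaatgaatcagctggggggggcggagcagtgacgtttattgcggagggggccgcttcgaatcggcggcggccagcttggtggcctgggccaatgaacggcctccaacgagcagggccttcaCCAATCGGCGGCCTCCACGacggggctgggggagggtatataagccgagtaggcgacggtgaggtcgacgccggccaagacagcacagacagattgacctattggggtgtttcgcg
HSP90B1: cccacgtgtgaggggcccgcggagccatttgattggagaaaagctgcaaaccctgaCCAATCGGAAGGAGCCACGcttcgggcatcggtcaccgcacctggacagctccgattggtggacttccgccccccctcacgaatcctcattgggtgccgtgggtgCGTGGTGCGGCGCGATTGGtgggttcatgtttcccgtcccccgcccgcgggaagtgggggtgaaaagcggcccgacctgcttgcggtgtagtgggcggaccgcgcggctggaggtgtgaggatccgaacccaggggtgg
HSPA8: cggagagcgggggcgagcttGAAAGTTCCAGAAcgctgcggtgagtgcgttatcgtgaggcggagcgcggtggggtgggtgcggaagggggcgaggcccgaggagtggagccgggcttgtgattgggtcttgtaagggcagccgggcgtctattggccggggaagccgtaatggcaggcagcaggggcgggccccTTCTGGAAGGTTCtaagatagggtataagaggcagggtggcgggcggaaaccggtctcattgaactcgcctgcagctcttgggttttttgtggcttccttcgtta
DNAJA1: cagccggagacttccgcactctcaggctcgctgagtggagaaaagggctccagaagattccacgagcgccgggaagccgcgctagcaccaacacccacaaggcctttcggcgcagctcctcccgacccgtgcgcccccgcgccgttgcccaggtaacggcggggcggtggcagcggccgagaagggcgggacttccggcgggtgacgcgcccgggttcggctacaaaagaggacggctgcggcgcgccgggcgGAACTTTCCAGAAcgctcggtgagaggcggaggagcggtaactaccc
BAG3: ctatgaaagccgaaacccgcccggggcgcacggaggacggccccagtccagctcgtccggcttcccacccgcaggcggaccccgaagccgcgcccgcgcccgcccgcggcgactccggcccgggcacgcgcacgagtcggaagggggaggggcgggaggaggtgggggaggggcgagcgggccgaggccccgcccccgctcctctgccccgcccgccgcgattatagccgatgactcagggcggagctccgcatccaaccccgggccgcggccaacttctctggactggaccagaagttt
The endoplasmic reticulum stress element (CCAAT, then 9 bases, then CCACG, on either strand) was found in 0.0776% of the 34796 distinct promoter windows of the reference. Among the 72 members with a window it was in 2 of 15 endoplasmic reticulum genes, HSPA5 (first base 66 bases before the start) and HSP90B1 (194 bases before the start and, on the opposite strand, 89 bases before it), and in 0 of 40 cytosolic ones. A heat shock element (3 alternating GAA and TTC triplets, each 2 bases apart) was in 0.491% of all windows. It was in 4 of 40 cytosolic members, namely HSPA8 with matches starting 230 and 55 bases before the start, DNAJA1 with a match 3 bases after it, DNAJB6 and HSPA6, and in 0 of 15 endoplasmic reticulum members. The windows of BAG3, DNAJB1, HSPA1A and PDIA4 held neither, which says only that these letters are not in these windows. The amino acid response element (TGATG, any base, then AA) was in 1 of 72 member windows, that of HSPA4L, against 3.63% of all windows.

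The summed level of the cytosolic members was lower in both Sorafenib clones than in the 5 others, a sum that 3 genes dominate, while that of the endoplasmic reticulum members was not. The summed level of the 45 cytosolic members was 9005 ± 315 CPM in ATUX (SD over 2 clones), 8695 ± 168 CPM in SMAP (SD over 3 clones), 6046 CPM in Sor6G and 5989 CPM in Sor9H. For the 17 endoplasmic reticulum members the sums were 3629 ± 180 CPM in ATUX, 3751 ± 49.8 CPM in SMAP, 4169 CPM in Sor6G and 3122 CPM in Sor9H. Sor6G was thus above and Sor9H below every other clone. The ratio of the endoplasmic reticulum sum to the cytosolic sum was between 0.399 (ATUX8H) and 0.444 (SMAP9C) in the 5 ATUX and SMAP clones, 0.522 in Sor9H and 0.69 in Sor6G. The 8 mitochondrial members summed to 1694 CPM in ATUX, 1464 ± 142 CPM in SMAP, 1464 CPM in Sor6G and 1169 CPM in Sor9H. A few genes carried these sums: HSP90AB1, HSPA8 and HSP90AA1 made up 60.9% of the cytosolic one, and HSP90B1, HSPA5 and PDIA6 58.7% of the endoplasmic reticulum one. Without the third ATUX libraries the cytosolic ATUX sum was 8686 CPM.

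**Figure D1:**
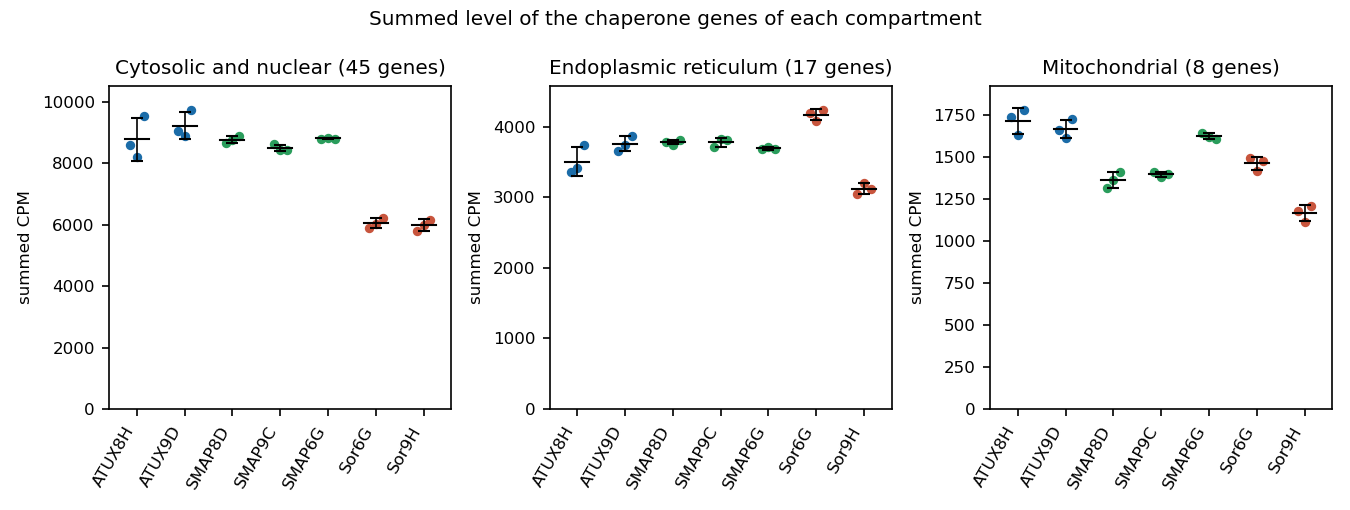
Summed CPM of the cytosolic and nuclear (left), endoplasmic reticulum (middle) and mitochondrial (right) members in the 21 libraries; points are libraries, lines the clone mean and bars the SD over 3 libraries, blue for ATUX, green for SMAP and red for Sorafenib. The Sorafenib clones sit at 6046 and 5989 CPM in the left panel, below the other 5, and on both sides of them in the middle panel.

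Per length, the cytosolic HSP90 HSP90AB1 was the most abundant member at 666.8 CPM per kilobase, ahead of the constitutive HSP70 HSPA8 at 391.4 CPM per kilobase. HSPA5 (200.5 CPM per kilobase) and HSP90B1 (188.3 CPM per kilobase) led the endoplasmic reticulum set, and HSPD1 (133.8 CPM per kilobase) and HSPA9 (126.9 CPM per kilobase) the mitochondrial set. Among the 63 members averaging 5 CPM or more, 22 differed by less than 1.5-fold and 16 by at least 2-fold between the highest and the lowest clone mean, with a median of 1.73-fold.

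Sorafenib clones against the others gave many calls and ATUX against SMAP few. A call is an adjusted p below 0.05 in edgeR's quasi-likelihood test on clone sums, with Benjamini-Hochberg adjustment over all 18613 genes tested, of which 75 were members. ATUX exceeded Sorafenib for 20 members and was lower for 6, which is 34.7% of those tested against 25.8% of all genes. SMAP exceeded Sorafenib for 18 and was lower for 10, 37.3% against 34.5% of all genes. ATUX and SMAP differed for 7 members (4 higher and 3 lower in ATUX), 9.33% against 10.3% of all genes (5.27% higher and 5.06% lower). The total share of members called was thus near that of all genes in the comparisons of SMAP with the other drugs. Among genes with 10 CPM or more, 31.9% were called in ATUX against Sorafenib, 40.6% in SMAP against Sorafenib and 12.4% in ATUX against SMAP. The member share of 34.7% was near the first of these, and those of 37.3% and 9.33% lay below the others. Split by direction, the background against Sorafenib was 13.3% up and 12.5% down for ATUX, and 16.8% up and 17.7% down for SMAP. The libraries of the drugs did not overlap for 39 members in ATUX against Sorafenib and for 39 in SMAP against Sorafenib, 52% of the members each time, where 39.6% and 41.3% of all genes and 51.9% and 54.5% of genes with 10 CPM or more did not overlap. In ATUX against SMAP this held for 17 members (22.7%, against 21.3% of all genes). Both comparisons used the same Sorafenib clones, and leaving out Sor9H left 8 calls for ATUX and 17 for SMAP. For ATUX against Sorafenib, 13 calls were left without ATUX9D and 12 without Sor6G. The ATUX against SMAP count was 2 without ATUX8H or SMAP9C and 3 without SMAP8D. Calls kept in every alternative numbered 6 of 26 for ATUX against Sorafenib (HSPA4, HSPH1, DNAJC7, DNAJC3, DNAJC16 and DNAJC6), 14 of 28 for SMAP against Sorafenib (the same 6 with BAG1, BAG3, DNAJA1, DNAJB2, DNAJC10, DNAJC21, HSPA12A and HSPB11) and 2 of 7 for ATUX against SMAP (DNAJC5 and HSPA12A). Each remaining drug call ended when at least 1 of the 7 clones was left out.

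Split by place, ATUX exceeded Sorafenib for 12 of 39 tested cytosolic members and was lower for 1, with a median log2 difference of 0.46 where all genes had 0.01. In SMAP against Sorafenib 12 cytosolic members were higher and 4 lower, with a median of 0.36 where all genes had 0.01. Of 17 endoplasmic reticulum members, 2 were higher and 1 was lower in ATUX than Sorafenib (median 0.06), and 3 were higher and 2 lower in SMAP than Sorafenib (median 0.12). Among 8 mitochondrial members, ATUX was above Sorafenib for 3 and below it for 2, and SMAP was below it for 1. Between ATUX and SMAP 2 cytosolic members were higher and 3 lower in ATUX. In that comparison 0 of 17 endoplasmic reticulum and 0 of 8 mitochondrial members were called by edgeR, with 4 in each set at an unadjusted p below 0.05, while DESeq2 called 1 and 2 and limma-voom 4 and 4. The shares of all genes at the unadjusted p, in DESeq2 and in limma-voom are not given here. These counts thus have no background to be read against. In ATUX and SMAP against Sorafenib, 33.3% and 41% of cytosolic members were called. The shares were 17.6% and 29.4% for the endoplasmic reticulum and 62.5% and 12.5% for mitochondria. For all genes they were 25.8% and 34.5%, and for genes with 10 CPM or more 31.9% and 40.6%. The cytosolic shares were thus near those of genes with 10 CPM or more. Between ATUX and SMAP 12.8% of cytosolic members were called, against 10.3% of all genes. These shares describe the sets, and the difference between sets was not tested.

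**Figure D2:**
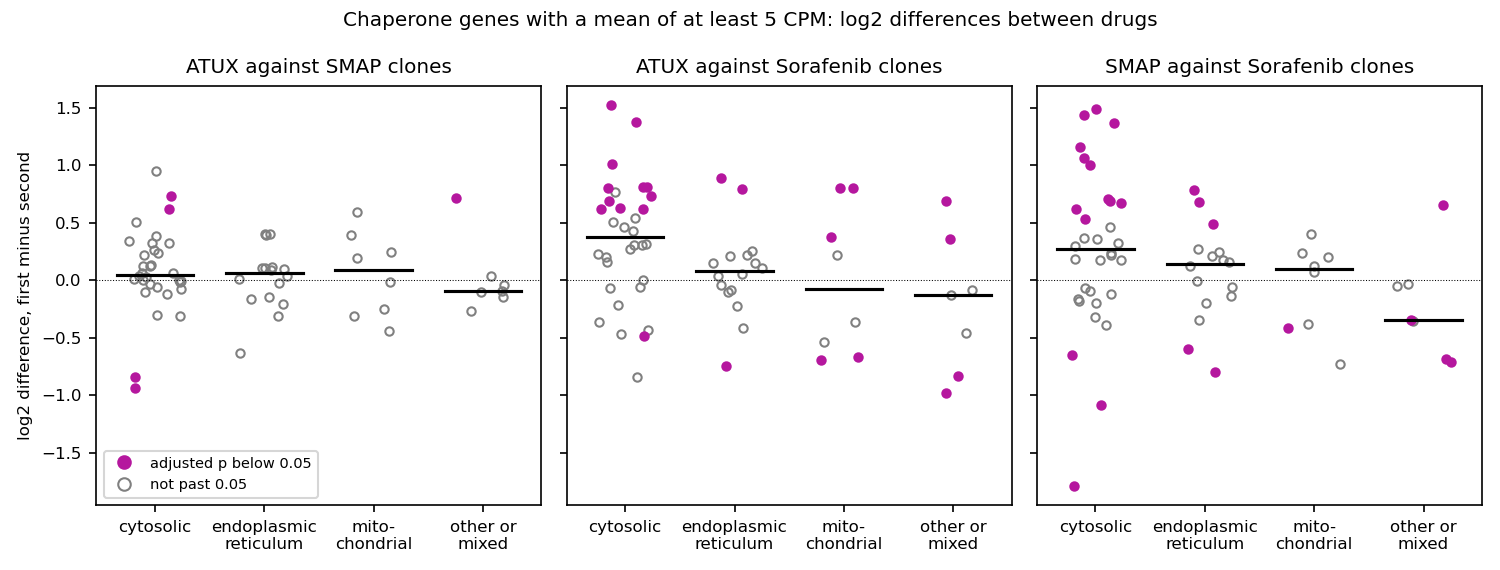
Log2 difference (first drug minus second) of each member averaging 5 CPM or more, in 4 places and for the 3 drug comparisons; filled points passed an adjusted p of 0.05 in edgeR and bars are medians of the plotted members. The top cytosolic point against Sorafenib is DNAJC7 (1.52 in ATUX and 1.49 in SMAP), and the top endoplasmic reticulum points are PDIA5 in ATUX (0.89) and DNAJC18 in SMAP (0.78).

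HSPA4 (APG2), an HSP110-type exchange factor of cytosolic HSP70 encoded at chromosome 5 from 133051962 to 133106449 on the plus strand, was lower in Sorafenib. Its libraries ran from 379 to 418 CPM in ATUX (median 402), from 358 to 464 CPM in SMAP (median 392) and from 146 to 167 CPM in Sorafenib (median 154). All 6 Sorafenib libraries lay below all 15 others, with no overlap. The log2 difference was 1.38 ± 0.14 (SE) for ATUX (edgeR adjusted p = 0.00292) and 1.37 ± 0.13 for SMAP (edgeR adjusted p = 0.00132) over Sorafenib, and both calls held in all 14 alternatives. ATUX and SMAP differed by 0.01, with a 95% interval of -0.289 to 0.301. The 26 tested genes within 1 Mb of HSPA4 had median log2 differences of 0.63 and 1.02 in the same comparisons, and the part of such neighbourhood changes in these differences was not tested.

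HSPH1 (HSP105), the heat-inducible HSP110, had 212 to 286 CPM in ATUX (median 251), 234 to 265 CPM in SMAP (median 248) and 113 to 138 CPM in Sorafenib (median 121). Again no Sorafenib library reached the others. The log2 differences from Sorafenib were 1.01 ± 0.14 for ATUX (edgeR adjusted p = 0.00584) and 1.00 ± 0.13 for SMAP (edgeR adjusted p = 0.003), against medians of 0.34 and 0.17 for the 9 tested neighbours. ATUX and SMAP differed by 0.01 (95% interval -0.292 to 0.31).

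HSPA8 (HSC70), the constitutive HSP70 whose promoter above holds a pair of heat shock elements, had 1760 to 2450 CPM in ATUX (median 1896), 1942 to 2307 CPM in SMAP (median 2266) and 1201 to 1447 CPM in Sorafenib (median 1340). The groups of libraries did not overlap with Sorafenib. Log2 differences were 0.63 ± 0.14 for ATUX (edgeR adjusted p = 0.0218) and 0.70 ± 0.13 for SMAP (edgeR adjusted p = 0.00849). Leaving out ATUX8H, ATUX9D, Sor6G or Sor9H ended the first call, in 4 of 14 alternatives (adjusted p from 1.72e-06 to 0.123) and the second in 1, without Sor9H (from 5.73e-08 to 0.0641). HSPA8 and the HSP90 genes have processed copies in the genome, and reads that match several places could have been counted in different ways.

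HSP90AA1, the inducible cytosolic HSP90, had 969 to 1624 CPM in ATUX (median 1147), 1067 to 1128 CPM in SMAP (median 1089) and 636 to 696 CPM in Sorafenib (median 677). Sorafenib did not overlap with either drug, and the highest ATUX value was the third library of ATUX8H. Differences from Sorafenib were 0.81 ± 0.14 (edgeR adjusted p = 0.0098) and 0.69 ± 0.13 (edgeR adjusted p = 0.00849) on the log2 scale, each lost without Sor9H (adjusted p over the 14 alternatives 7.04e-08 to 0.0687 and 1.23e-07 to 0.0646). Its constitutive partner HSP90AB1 had 2036 to 2723 CPM in ATUX, 1939 to 2120 CPM in SMAP and 1496 to 1619 CPM in Sorafenib. ATUX9D (2723, 2713 and 2593 CPM) stood above ATUX8H (2119, 2036 and 2074 CPM). The ATUX call (log2 0.62 ± 0.16, edgeR adjusted p = 0.0313) was lost in 5 of 14 alternatives, each without 1 clone (adjusted p 1.34e-07 to 0.131), and the SMAP difference of 0.36 ± 0.15 did not pass (edgeR adjusted p = 0.0994).

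The heat-inducible HSP70 genes HSPA1A and HSPA1B, which are near-identical copies whose reads can be split arbitrarily, were not called between drugs. Their summed level was 92.2 to 115 CPM in ATUX, 88.5 to 117 CPM in SMAP and 82.1 to 113 CPM in Sorafenib, with overlapping ranges. For HSPA1A the log2 differences from Sorafenib were 0.16 (95% interval -0.222 to 0.544) for ATUX and 0.18 (-0.176 to 0.527) for SMAP. HSPA6, the strictly inducible HSP70, had 37 counts over the 6 ATUX, 50 over the 9 SMAP and 5 over the 6 Sorafenib libraries, and did not pass in any drug comparison. HSPB1 (HSP27), a small heat shock protein, had 109 to 158 CPM in ATUX, 90.9 to 124 CPM in SMAP and 102 to 132 CPM in Sorafenib and did not pass either.

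Further HSPA genes differed too. HSPA14, an HSP70 relative associated with ribosomes, had means of 20.5, 20.9 and 13.5 CPM in ATUX, SMAP and Sorafenib and was higher than in Sorafenib in both (log2 0.62 and 0.62, edgeR adjusted p = 0.0248 and 0.0137). HSPA4L, another HSP110-type gene, was called in ATUX against Sorafenib (58.3 against 33.6 CPM, log2 0.80, edgeR adjusted p = 0.0309). HSPA2 was called in SMAP (33.1 against 15.8 CPM, log2 1.07, edgeR adjusted p = 0.025), where SMAP9C (45, 48 and 45.3 CPM) lay above SMAP8D and SMAP6G (23.5 to 29.8 CPM). HSPA12A, a distant HSPA relative at chromosome 10, had 4.48 to 7.09 CPM in SMAP, 0.773 to 1.97 CPM in ATUX and 0.223 to 0.632 CPM in Sorafenib. Its 3 groups did not overlap, and all differences passed, with SMAP over Sorafenib at 3.68 ± 0.32 (edgeR adjusted p = 0.00112) and ATUX below SMAP at -2.09 ± 0.29 (edgeR adjusted p = 0.0121). The 7 tested neighbours of HSPA12A had medians of 1.38 for SMAP against Sorafenib, 0.89 for ATUX against Sorafenib and 0.11 for ATUX against SMAP. The part of this neighbourhood was not tested.

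**Figure D3:**
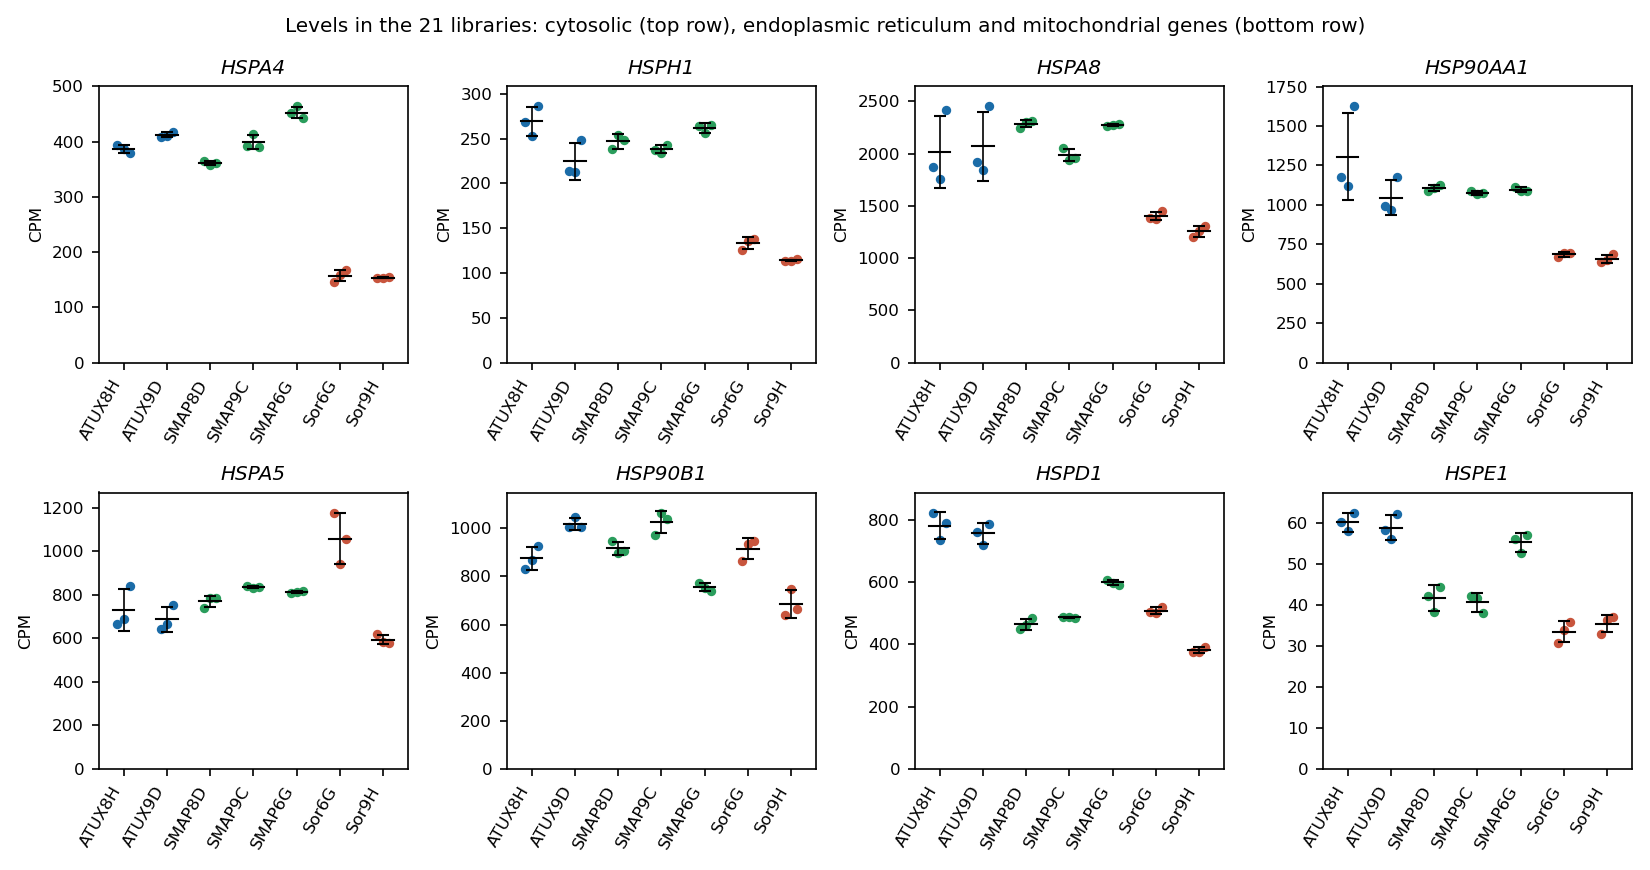
CPM of 8 members in the 21 libraries: the cytosolic HSPA4, HSPH1, HSPA8 and HSP90AA1 on top, the endoplasmic reticulum HSPA5 and HSP90B1 and the mitochondrial HSPD1 and HSPE1 below; points are libraries, lines and bars the clone mean and SD over 3 libraries. In the top row all Sorafenib libraries lie below the rest, while Sor6G has the highest HSPA5 (940 to 1175 CPM) and Sor9H the lowest (579 to 618 CPM).

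J-domain proteins choose the substrates of HSP70. DNAJA1 (HDJ2), a class A partner of HSPA8 with a heat shock element just after its start, had 447 to 516 CPM in ATUX (median 462), 421 to 512 CPM in SMAP (median 440) and 268 to 297 CPM in Sorafenib (median 290). Sorafenib libraries were below all others, with log2 differences of 0.73 ± 0.13 (edgeR adjusted p = 0.0102) for ATUX and 0.67 ± 0.12 (edgeR adjusted p = 0.00701) for SMAP. DNAJB1 (HSP40), the main heat-inducible class B partner, had 143 to 181 CPM in ATUX, 108 to 150 CPM in SMAP and 86.5 to 96.1 CPM in Sorafenib. The Sorafenib range lay below both, but only the ATUX difference passed (log2 0.81 ± 0.17, edgeR adjusted p = 0.0169), and the SMAP one was 0.47 ± 0.15 (edgeR adjusted p = 0.0545). The ATUX call was lost in 3 of 14 alternatives (adjusted p 1.01e-07 to 0.102).

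DNAJC7 (TPR2), which carries a J-domain and TPR repeats and hands substrates between HSP70 and HSP90, had 80.4 to 109 CPM in ATUX (median 99.1), 91.7 to 101 CPM in SMAP (median 96.2) and 31.8 to 37.2 CPM in Sorafenib (median 33). No Sorafenib library came near the others. Log2 differences were 1.52 ± 0.14 (edgeR adjusted p = 0.00265) and 1.49 ± 0.13 (edgeR adjusted p = 0.00117), and the 64 tested genes within 1 Mb on chromosome 17 had medians of 0.93 and 0.71. DNAJC21, which acts in ribosome biogenesis, had 151 to 185 CPM in SMAP, 81.1 to 101 CPM in ATUX and 70.2 to 76.2 CPM in Sorafenib. It was lower in ATUX than in SMAP (-0.84 ± 0.13, edgeR adjusted p = 0.0171) and higher in SMAP than in Sorafenib (1.16 ± 0.14, edgeR adjusted p = 0.00225). The 12 tested neighbours of DNAJC21 on chromosome 5 had medians of -1.04 and 1.11, about the same as the gene itself, and the part of the neighbourhood was not tested.

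DNAJB6, which keeps aggregation-prone proteins soluble, was higher in ATUX than in SMAP (251 to 363 against 147 to 206 CPM, log2 0.73 ± 0.15, edgeR adjusted p = 0.0317), a call lost in 6 of 14 alternatives (adjusted p 3.53e-07 to 0.106). DNAJC9, a histone chaperone with a J-domain, was higher in ATUX than in Sorafenib (86.7 against 54.3 CPM, log2 0.69, edgeR adjusted p = 0.0436). DNAJC17, a J-domain protein tied to splicing, was lower in SMAP than in Sorafenib (12.3 against 19.2 CPM, log2 -0.65, edgeR adjusted p = 0.0127). The 47 tested neighbours of DNAJC17 had a median of -0.56 in that comparison. The other tested class A and B partners of the cytosol, DNAJA2, DNAJA4, DNAJB4 and DNAJB5, passed in no drug comparison.

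The BAG proteins set where HSP70 clients go: BAG3 leads them to selective autophagy and BAG1 to the proteasome. BAG3, at chromosome 10 from 119651370 to 119677819 on the plus strand, had 321 to 485 CPM in SMAP (median 382), 183 to 229 CPM in ATUX (median 202) and 134 to 155 CPM in Sorafenib (median 143). The 3 ranges did not overlap, and by clone mean the order was SMAP9C (475 CPM), SMAP8D (382 CPM), SMAP6G (327 CPM), ATUX9D (219 CPM), ATUX8H (187 CPM), Sor9H (150 CPM) and Sor6G (139 CPM). Of the neighbours in this order that belong to one drug, all differed by edgeR (adjusted p 4.91e-06 to 0.000278) except the Sorafenib clones (log2 -0.11, edgeR adjusted p = 0.0671, 0.026 to 0.431 over the alternatives). SMAP exceeded Sorafenib by 1.44 ± 0.18 (edgeR adjusted p = 0.00281), a call kept in all 14 alternatives. ATUX was lower than SMAP by -0.94 ± 0.18 (edgeR adjusted p = 0.0257), lost in 6 of 14 alternatives (adjusted p 2.11e-08 to 0.0883), and ATUX over Sorafenib did not pass (0.50 ± 0.19, edgeR adjusted p = 0.0962). The 15 tested neighbours had medians of 0.15, -0.10 and -0.11 for ATUX against SMAP, ATUX against Sorafenib and SMAP against Sorafenib.

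BAG1 had the opposite order of drugs, with 25.4 to 34.7 CPM in SMAP (median 28.8), 48.5 to 63.3 CPM in ATUX (median 56) and 61.6 to 143 CPM in Sorafenib (median 98.5). Sor9H (131, 139 and 143 CPM) stood far above the 3 Sor6G libraries (61.6, 66.4 and 66.5 CPM), and Sor6G overlapped with ATUX8H. SMAP was lower than Sorafenib by a log2 difference of -1.79 ± 0.30 (edgeR adjusted p = 0.00649). The ratio of BAG3 to BAG1 CPM, computed after these values were seen and given with no test, was 13.8 ± 4.1 in SMAP, 3.68 ± 0.793 in ATUX and 1.62 ± 0.747 in Sorafenib (SD over clones). DNAJB2, a J-domain protein that passes ubiquitinated clients to the proteasome, had 34.4 to 43.1 CPM in SMAP, 44.1 to 67.6 CPM in ATUX and 69.3 to 87.6 CPM in Sorafenib, again without overlap. Its differences were -1.08 ± 0.14 for SMAP against Sorafenib (edgeR adjusted p = 0.00316) and 0.62 ± 0.15 for ATUX against SMAP (edgeR adjusted p = 0.0442, lost in 6 of 14 alternatives, adjusted p 5.41e-06 to 0.164). The 46 tested neighbours of DNAJB2 had medians of -0.36 for SMAP against Sorafenib and 0.47 for ATUX against SMAP. The part of this neighbourhood was not tested. BAG2, an inhibitor of ubiquitination by the HSP70-bound ligase CHIP, was lower in ATUX than in Sorafenib (52.3 against 73.6 CPM, log2 -0.49, edgeR adjusted p = 0.0369), and BAG5 was higher in SMAP (82.2 against 56.3 CPM, log2 0.53, edgeR adjusted p = 0.028). BAG4 and BAG6 did not pass in any drug comparison.

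**Figure D4:**
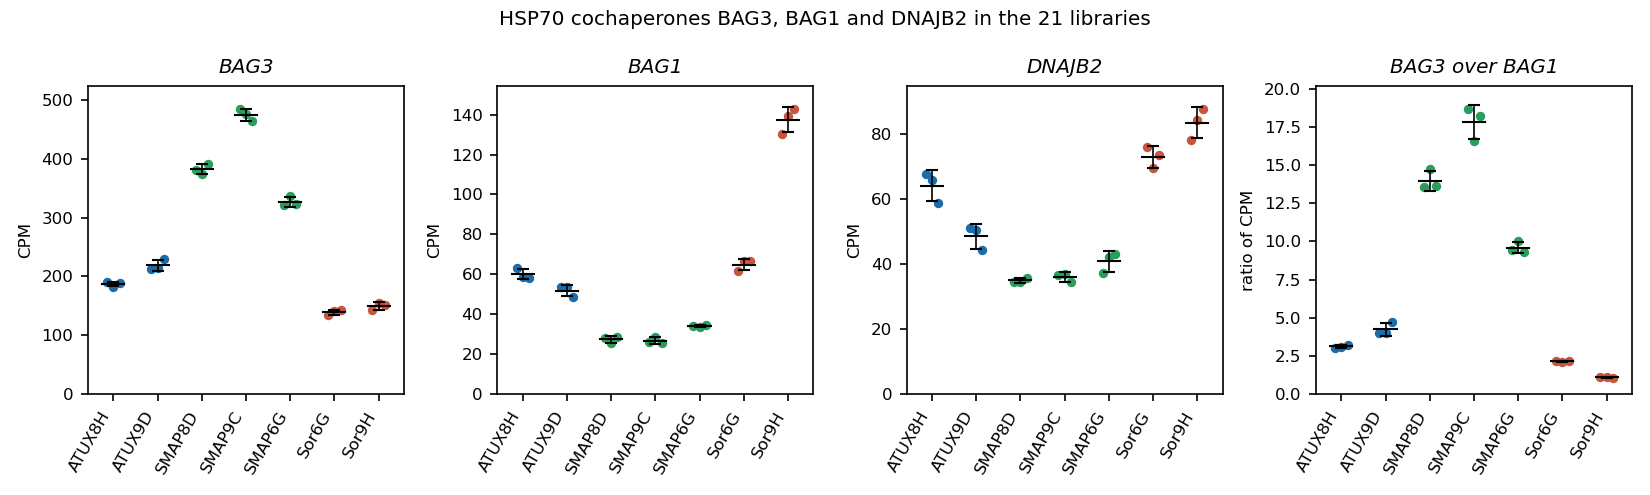
CPM of BAG3, BAG1 and DNAJB2 and the ratio of BAG3 to BAG1 in the 21 libraries; points are libraries, lines and bars the clone mean and SD over 3 libraries, blue for ATUX, green for SMAP and red for Sorafenib. SMAP clones are highest for BAG3 (321 to 485 CPM) and lowest for BAG1 (25.4 to 34.7 CPM) and DNAJB2 (34.4 to 43.1 CPM).

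In the endoplasmic reticulum, HSPA5 (BiP), the HSP70 of that compartment and the usual readout of its stress, did not separate the drugs. It lies on chromosome 9 from 125234853 to 125241330 on the minus strand and had 642 to 841 CPM in ATUX (median 677), 740 to 841 CPM in SMAP (median 812) and 579 to 1175 CPM in Sorafenib (median 779). The Sorafenib range enclosed both others, since Sor6G (1175, 940 and 1056 CPM) was above and Sor9H (618, 584 and 579 CPM) below all remaining clone means. Log2 differences from Sorafenib were -0.22 (95% interval -0.832 to 0.391) for ATUX and -0.06 (-0.614 to 0.5) for SMAP. Sor6G exceeded Sor9H by 0.83 ± 0.08 (edgeR adjusted p = 1.83e-08), and this held in each alternative (adjusted p 3.66e-48 to 8.67e-07). By clone mean the order was Sor6G (1057 CPM), SMAP9C (836 CPM), SMAP6G (812 CPM), SMAP8D (769 CPM), ATUX8H (731 CPM), ATUX9D (687 CPM) and Sor9H (594 CPM), and neither the 3 SMAP clones nor the 2 ATUX clones differed from each other by edgeR (log2 differences of -0.12 to 0.09).

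HSP90B1 (GRP94), the HSP90 of the endoplasmic reticulum, had 831 to 1047 CPM in ATUX, 739 to 1063 CPM in SMAP and 642 to 946 CPM in Sorafenib, and the ranges overlapped. PDIA4 (ERp72) had 395 to 482, 278 to 472 and 317 to 462 CPM, PDIA6 375 to 528, 517 to 590 and 371 to 533 CPM, and PDIA3 (ERp57) 319 to 369, 384 to 433 and 301 to 389 CPM in the same order of drugs. These disulfide isomerases did not pass in any drug comparison, and neither did DNAJB9 (17.2 to 27.5 CPM in ATUX, 17.7 to 22.9 CPM in SMAP and 19.7 to 25.4 CPM in Sorafenib) or DNAJB11, the J-domain partners of HSPA5 in the lumen. The 95% intervals of the differences from Sorafenib were -0.239 to 0.755 for HSP90B1 in ATUX and -0.556 to 0.549 for PDIA4 in SMAP. Both ended below the difference of 1.00 seen for HSPH1. The HSP90B1 interval still held the smaller differences called in ATUX for HSPA8 (0.63) and DNAJA1 (0.73). A change of that size thus cannot be told from none for HSP90B1.

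Some members of the compartment did differ. HSPA13, a small HSP70-like protein of microsomes, had 65.7 to 88.5 CPM in ATUX, 76.5 to 89.7 CPM in SMAP and 102 to 147 CPM in Sorafenib, and was lower than Sorafenib in both (log2 -0.74, edgeR adjusted p = 0.0173, and -0.59, edgeR adjusted p = 0.0181). These calls were lost in 3 and 2 of 14 alternatives. DNAJC10 (ERdj5), a disulfide reductase that opens misfolded proteins for degradation, had 201 to 287 CPM in ATUX, 171 to 199 CPM in SMAP and 293 to 355 CPM in Sorafenib. No ranges overlapped, and SMAP was lower than Sorafenib by -0.80 ± 0.13 (edgeR adjusted p = 0.005), while ATUX did not pass (-0.41, edgeR adjusted p = 0.07). DNAJC3 (p58IPK), which restrains the stress kinase PERK, went the other way: 82.5 to 110 CPM in ATUX, 80.5 to 96.4 CPM in SMAP and 51.1 to 58.5 CPM in Sorafenib. It was higher by 0.79 ± 0.12 in ATUX (edgeR adjusted p = 0.00739) and by 0.68 ± 0.11 in SMAP (edgeR adjusted p = 0.00606), beside medians of 1.93 and 0.59 for its 9 tested neighbours on chromosome 13. PDIA5 was also higher than Sorafenib in ATUX (43.9 against 24.1 CPM, log2 0.89, edgeR adjusted p = 0.0128) and in SMAP (33.8 CPM, log2 0.49, edgeR adjusted p = 0.0471), the latter lost in 7 of 14 alternatives (adjusted p 0.000347 to 0.183). The 21 tested neighbours of PDIA5 had medians of 0.08 in ATUX and 0.73 in SMAP against Sorafenib. DNAJC18 was higher in SMAP (11.5 against 6.62 CPM, log2 0.78, edgeR adjusted p = 0.0288), beside a median of 0.59 for its 31 tested neighbours.

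**Figure D5:**
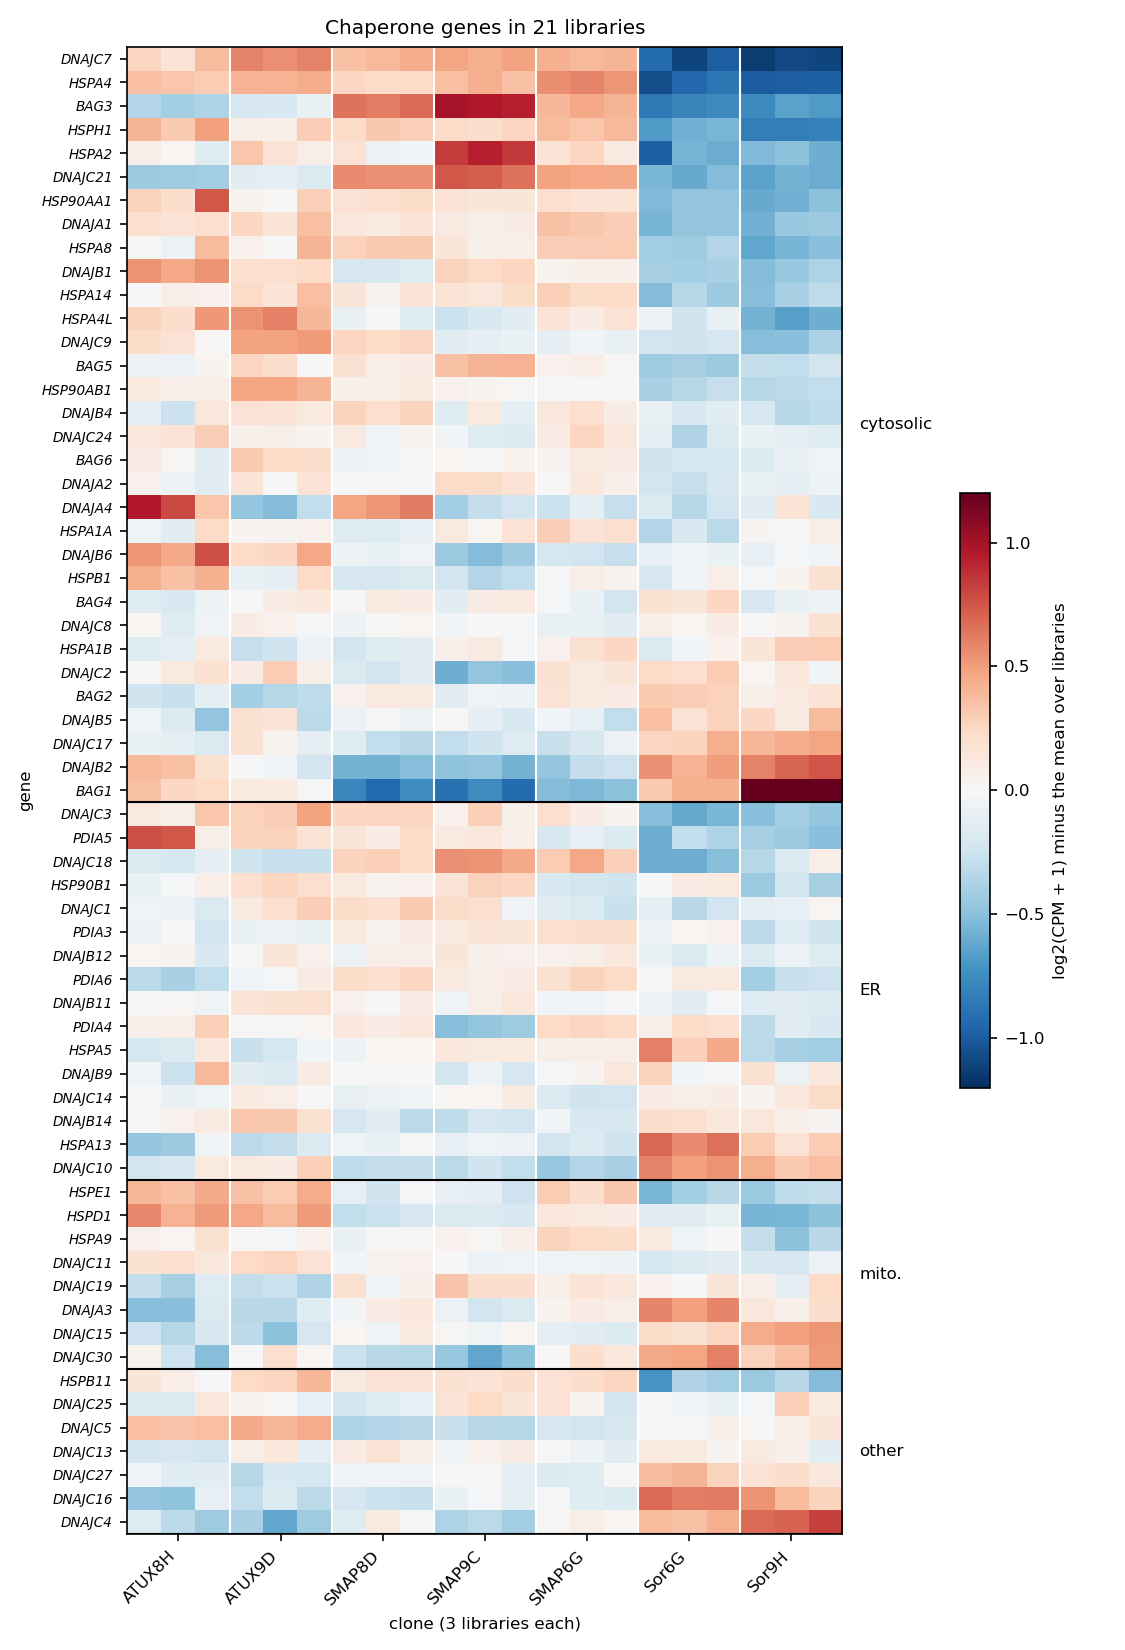
Heat map of the 63 members averaging 5 CPM or more: log2(CPM + 1) in each of the 21 libraries minus the gene's mean over libraries, with colours cut at 1.2 in both directions, genes grouped by place and, within a place, ordered by their mean in the Sorafenib libraries. From DNAJC7 and HSPA4 at the top to BAG1 at the bottom, the cytosolic block runs from low to high in Sorafenib.

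The mitochondrial chaperonin had its highest mean in ATUX, where edgeR called the difference from Sorafenib but not that from SMAP. HSPD1 (HSP60) had 719 to 821 CPM in ATUX (median 774), 448 to 607 CPM in SMAP (median 488) and 374 to 520 CPM in Sorafenib (median 446), and its lid HSPE1 (HSP10) had 56.1 to 62.5 CPM, 38.1 to 57 CPM and 30.7 to 37 CPM. ATUX libraries lay above all Sorafenib libraries for both, by 0.80 ± 0.19 for HSPD1 (edgeR adjusted p = 0.0253) and 0.80 ± 0.17 for HSPE1 (edgeR adjusted p = 0.0181), each lost in 3 of 14 alternatives (adjusted p 5.57e-07 to 0.131 and 3.45e-07 to 0.0901). By the deposited coordinates on chromosome 2, HSPE1 (197499994 to 197503457) lies wholly within the span of HSPD1 (197486581 to 197516737), on the opposite strand. With the counting's strand setting not stated in the sources, reads of the pair cannot be fully told apart. Against SMAP the HSPD1 difference was 0.60 (95% interval 0.191 to 0.999) and did not pass after adjustment (edgeR adjusted p = 0.0714). The HSPE1 difference from SMAP was 0.39 and did not pass either, and the ranges of ATUX and SMAP overlapped. The 10 tested neighbours of HSPD1 and HSPE1 had medians of 0.58 in ATUX against SMAP and -0.13 in ATUX against Sorafenib. The part of the neighbourhood was not tested. Mitochondrial HSP70, HSPA9 (mortalin), had 592 to 681 CPM in ATUX, 566 to 721 CPM in SMAP and 425 to 645 CPM in Sorafenib and passed in no drug comparison. Its J-domain partner DNAJA3 (75.7 against 122.6 CPM, log2 -0.69, edgeR adjusted p = 0.0304) and DNAJC15 of the import motor (35.8 against 57.1 CPM, log2 -0.67, edgeR adjusted p = 0.0166) were lower in ATUX than in Sorafenib. The tested neighbours of DNAJA3 and DNAJC15 had medians of -0.36 and -0.92 in that comparison. DNAJC11 was higher in ATUX than in Sorafenib (103 against 80.6 CPM, log2 0.37, edgeR adjusted p = 0.0371, lost in 8 of 14 alternatives, adjusted p 4.62e-08 to 0.142).

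Members with other places differed between drugs too. DNAJC6 (auxilin), which uncoats clathrin vesicles with HSPA8 and is best known in neurons, had 4.53 to 11.9 CPM in ATUX, 1.07 to 2.15 CPM in SMAP and at most 0.141 CPM in Sorafenib, where 6 libraries held 12 counts in all. The 3 drugs did not overlap, and all differences passed, with ATUX over SMAP at 2.15 ± 0.42 (edgeR adjusted p = 0.0274, lost in 3 of 14 alternatives, adjusted p 3.02e-07 to 0.095) and over Sorafenib at 6.41 ± 0.62 (edgeR adjusted p = 0.00269). DNAJC5 (cysteine string protein), an HSP70 partner on secretory vesicles, had 170 to 183 CPM in ATUX, 103 to 117 CPM in SMAP and 132 to 148 CPM in Sorafenib, and ATUX over SMAP was 0.71 ± 0.10 (edgeR adjusted p = 0.0121). DNAJC16 and DNAJC4 were lower than Sorafenib in both other drugs (DNAJC16 means of 41.1, 46.1 and 73.6 CPM in ATUX, SMAP and Sorafenib, log2 -0.83 and -0.69, edgeR adjusted p = 0.00814 and 0.00672). HSPB11, a part of the ciliary transport machinery despite its name, was higher than Sorafenib in both (40.4, 40.1 and 25.4 CPM, log2 0.69 and 0.66, edgeR adjusted p = 0.0117 and 0.00726).

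Between clones of one drug, members were called about as often as other genes. Of the 70 members tested among 16504 genes in the fit of 21 libraries, 36 differed between ATUX8H and ATUX9D (13 higher and 23 lower in ATUX8H), 51.4% against 46.1% of all genes. The Sorafenib clones differed in 25 (16 higher and 9 lower in Sor6G), 35.7% against 33.7%. Among SMAP clones 23 differed between SMAP8D and SMAP9C (background 35.1%), 25 between SMAP8D and SMAP6G (34.8%) and 30 between SMAP9C and SMAP6G (39.7%), which is 32.9%, 35.7% and 42.9% of the members. Among genes with 10 CPM or more the shares were 54.9%, 42.9%, 44.3%, 42.4% and 49% in the same order of pairs, each above that of the members. By direction the background was 23.1% higher and 23% lower in ATUX8H, 16% and 17.7% in Sor6G, 17.3% and 17.9% for SMAP8D over SMAP9C, 17.2% and 17.6% for SMAP8D over SMAP6G, and 20% and 19.7% for SMAP9C over SMAP6G. The differences of the 9 endoplasmic reticulum members called between the ATUX clones (1 higher and 8 lower in ATUX8H) ran from 0.12 to 0.35 in size on the log2 scale. The ATUX count was 21 when only these libraries were fitted, and that of SMAP8D against SMAP6G was 38.

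Between the Sorafenib clones 7 of 16 tested endoplasmic reticulum members differed, 43.8% beside 33.7% of all genes and 42.9% of genes with 10 CPM or more: HSPA5, HSP90B1, PDIA3, PDIA4, PDIA6 and HSPA13 were higher in Sor6G, and DNAJC18 was lower. HSP90B1 had 865, 932 and 946 CPM in Sor6G and 642, 749 and 664 CPM in Sor9H (log2 0.42 ± 0.06, edgeR adjusted p = 2.91e-06). PDIA6 had 498, 532 and 533 CPM against 371, 409 and 414 CPM (log2 0.39 ± 0.05, edgeR adjusted p = 1.43e-06), and PDIA4 416, 462 and 455 CPM against 317, 359 and 347 CPM (log2 0.38 ± 0.06, edgeR adjusted p = 8.82e-06). For each of these no library of Sor9H reached Sor6G. DNAJB9, DNAJB11 and DNAJC3 did not pass between these clones. The mitochondrial HSPD1 and HSPA9 were also higher in Sor6G (log2 0.42 and 0.39, edgeR adjusted p = 1.81e-07 and 5.34e-06), while BAG1 was lower (-1.09 ± 0.06, edgeR adjusted p = 9.93e-13) and HSPA1A and HSPA1B were lower by -0.33 and -0.31.

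Between the ATUX clones HSPB8, the small heat shock protein that works with BAG3, had 5.98, 5.71 and 7.04 CPM in ATUX8H and 0.294, 0.501 and 0.314 CPM in ATUX9D (log2 4.04 ± 0.28, edgeR adjusted p = 1.62e-11). SMAP clones lay between, at 3.75 CPM in SMAP6G, 1.64 CPM in SMAP8D and 1.46 CPM in SMAP9C, and the 6 Sorafenib libraries held 30 counts in all. DNAJA4 was high in ATUX8H (13.8, 12.2 and 8.61 CPM) and SMAP8D (9.6, 10 and 10.8 CPM) and at 4.32 to 7.53 CPM in every other clone. It differed by 1.30 ± 0.15 between the ATUX clones (edgeR adjusted p = 8.97e-08). Among SMAP clones PDIA4 was low in SMAP9C alone (278, 285 and 293 CPM, against 420 to 472 CPM in the other two), with a log2 difference of -0.72 ± 0.06 from SMAP6G (edgeR adjusted p = 4.33e-10). SMAP6G had the highest HSPD1 (607, 598 and 592 CPM) and HSPE1 of the 3 SMAP clones. DNAJC2, a ribosome-associated partner of HSPA14, had 36.5, 39.5 and 38.8 CPM in SMAP9C and 62.9, 59.4 and 61 CPM in SMAP6G (log2 -0.68 ± 0.06, edgeR adjusted p = 1.19e-08). DNAJC30, a mitochondrial J-domain protein, differed by -0.71 between the same clones (edgeR adjusted p = 4.13e-05). DNAJC1 of the endoplasmic reticulum was higher in SMAP8D than in SMAP6G (0.46, edgeR adjusted p = 0.00026), and DNAJC25 was lower in SMAP8D than in SMAP9C (-0.37, edgeR adjusted p = 0.0099).

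Genes of the same pathways outside the naming rule were counted in 7 lists. All 8 subunit genes of the CCT chaperonin, which folds actin and tubulin in the cytosol, were higher than Sorafenib in ATUX (log2 0.75 to 1.06, median 0.88) and in SMAP (0.64 to 1.60, median 0.78). Their summed level was 3425 to 3942 CPM in ATUX, 3828 to 4018 CPM in SMAP and 1867 to 2171 CPM in Sorafenib, without overlap with Sorafenib. CCT5 alone was lower in ATUX than in SMAP among the 8 (598 against 1091 CPM, log2 -0.85, edgeR adjusted p = 0.0201). Of 17 other cochaperones, cytosolic apart from the collagen chaperone SERPINH1 of the endoplasmic reticulum, which did not pass, ATUX exceeded Sorafenib for 9 and was lower for 1, and SMAP for 8 and 1, among them STIP1, which links HSP70 to HSP90, at 416, 467 and 210 CPM in ATUX, SMAP and Sorafenib (SMAP log2 1.14, edgeR adjusted p = 0.00449). These are 58.8% and 52.9% of that list, where 25.8% and 34.5% of all genes and 31.9% and 40.6% of genes with 10 CPM or more were called. FKBP5, an HSP90 cochaperone of steroid receptors, had 10.2 to 35.4 CPM in ATUX and 42 to 75.5 CPM in SMAP, while the 6 Sorafenib libraries held 9 counts in all (log2 8.55 and 9.89, edgeR adjusted p = 0.00214 and 0.000716). HSF1, the regulator of the heat shock response, had means of 89.5, 79.3 and 80.4 CPM in ATUX, SMAP and Sorafenib and passed in none, HSF2 likewise, and HSF4 was lower than Sorafenib in both (log2 -0.88 and -0.80, edgeR adjusted p = 0.0491 and 0.0388). These HSF4 calls were lost in 8 and 6 of 14 alternatives (adjusted p 1.59e-05 to 0.218 and 1.42e-05 to 0.224), the first also with DESeq2 size factors (adjusted p = 0.0501).

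Among 30 further folding genes of the endoplasmic reticulum, ATUX exceeded Sorafenib for 8 and was lower for 3, and SMAP for 11 and 3, which is 36.7% and 46.7% and close to the 31.9% and 40.6% of genes with 10 CPM or more. Calnexin (CANX), a lectin chaperone of glycoproteins, led them with 965 to 1176 CPM in ATUX, 1345 to 1500 CPM in SMAP and 440 to 555 CPM in Sorafenib (log2 1.14 and 1.53, edgeR adjusted p = 0.00491 and 0.00125). Of 12 sensors and factors of the unfolded protein response, 6 were lower than Sorafenib in ATUX and none was called higher by edgeR, and in SMAP 7 were lower and 2 higher (50% and 75% of the list called, against 25.8% and 34.5% of all genes). ATF4, the factor made on stress-limited translation, had 182 to 232 CPM in ATUX, 127 to 187 CPM in SMAP and 300.1 to 381 CPM in Sorafenib (log2 -0.81 and -1.15, edgeR adjusted p = 0.012 and 0.00209). ERN1 (IRE1), a sensor kinase, had means of 8.81, 16.2 and 51.8 CPM, and PPP1R15A (GADD34) 28.2, 17.2 and 72.2 CPM. In both Sorafenib clones these 3 genes were thus above the other drugs, whereas HSPA5 was above them in Sor6G and below them in Sor9H. Of 16 degradation genes, 5 rose above and 4 fell below Sorafenib in ATUX, and 5 and 5 in SMAP, and of 8 mitochondrial chaperones and proteases 1 and 1, and 2 and 1. These are 56.2% and 62.5% of the degradation list, and 25% and 37.5% of the mitochondrial one, which is near the 25.8% and 34.5% of all genes. Between ATUX and SMAP edgeR called at most 2 genes in a list, against 10.3% of all genes. These were 2 of 8 mitochondrial genes (25%) and 2 of 12 of the unfolded protein response (16.7%). The other lists had 0 to 12.5%. DESeq2 called up to 4 of 12, in the unfolded protein response, and limma-voom up to 6 of 30, in the folding genes. The shares of all genes in DESeq2 and limma-voom are not given here.

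DNAJB7, DNAJB8 and HSPB2 had 0 counts in all 21 libraries, HSPB3 had 1, HSPB9 had 5 and HSPA12B had 38, and these 6 were not tested between drugs. DNAJB13, DNAJC12, HSPA6, HSPB7 and PDIA2 were tested between drugs but not between clones. HSPB6 (0.0975 against 0.576 CPM) and DNAJB13 were called between SMAP and Sorafenib at levels below 1 CPM. Of the 81 members, 54 overlap another gene of the table in position, 44 of them on the opposite strand, and their counts may include or miss reads of that neighbour.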

How the data were processed

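Poly-A RNA of 21 libraries was sequenced after the Illumina TruSeq Stranded mRNA kit, per the labels' protocols. The authors deposited 1 table of whole-number read counts per gene, not normalized, per the file headers and values, beside coordinates, gene lengths and GC as a percent, also as deposited. Per the submitters' processing notes the build was GRCh38 and the software featureCounts 1.5.3, STAR 2.5.2b, Bowtie2 2.3.3.1, SAMtools 1.5 and cutadapt 1.15, with no order stated. Annotation release, strand setting and handling of multiply matching reads: not given in the sources used here. Coordinates of genes are those of the deposited table. Depth was 21022621 to 27691256 counts per library, and repeats of a clone differed by more than sampling noise (chi-square per degree of freedom at least 2.26).

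Levels are TMM-scaled CPM from edgeR 4.0.16 (R 4.3.3), and CPM divided by the deposited length where genes are compared. Drug comparisons summed the counts of a clone's 3 libraries and fitted 7 sums with filterByExpr and the robust quasi-likelihood test; clone comparisons fitted the 21 libraries with the clone as factor. P-values were adjusted by Benjamini-Hochberg over all genes tested, standard errors came from the quasi-likelihood F, and sums over places carry no test. The sources give no other model. Data were simulated from the 7 clone sums with changes set in ATUX, and ATUX was tested against SMAP (18159 genes). Of the changed genes, 1 of 50 at 1.5-fold, 20 of 50 at 2-fold and 45 of 50 at 4-fold were called. A missed call between ATUX and SMAP thus says little about changes of 2-fold or less. In the like simulation of ATUX8H against ATUX9D (16001 genes), 47 of 50 at 1.5-fold and 50 of 50 at 2-fold were called. Among unchanged genes, 10 were called between the drugs and 12 between the clones. The other comparisons were not simulated. Deviations from the clone means correlated between libraries of equal repeat number over 16504 genes. The correlations were 0.202, 0.258 and 0.308 for the ATUX clones and 0.207, 0.147 and 0.193 for the Sorafenib clones. Libraries of unlike numbers were not compared, so this does not establish pairing. The labels do not state a shared day or batch, and equal numbers carry unlike library letters in Sor6G (A, B, C) and Sor9H (B, C, D).

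The alternatives were DESeq2 1.42.0, its size factors, no filter on low counts, other fits of the 21 libraries (limma-voom from limma 3.58.1 with the clone as random block), the repeat number as a block, leaving out each clone or library, and leaving out the third ATUX libraries (for the ATUX clone comparison this was added after seeing the data). Members named in the text were 24 stated core chaperones, the called members with the largest log2 difference among those with at least 5 CPM, the most abundant per length and, of other lists, the genes with the smallest p; DNAJC11, HSPA14, HSPB6, DNAJB13 and members said not to pass or not to be tested were named outside this rule after their values were seen, to complete a count. The members and lists were chosen with earlier results of these data known. Comparisons with Sorafenib share its clones. The alternatives of a drug comparison include fits that take a clone's 3 libraries as replicates of the drug. Their adjusted p is too small, and the ranges of adjusted p over the alternatives include it. Promoter windows are from RefSeq, 72 of 81 members matched by symbol, and HSPA8 and DNAJA1 were added to the windows printed because they hold a match.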

Additional observations from a re-analysis of the deposited data

Results flagged for a closer look

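Among 53 named members, 159 sets of libraries (each member in each drug) were searched for a single library far from the rest, and 7 were found. Chance flags about 1 in 20 such sets if the libraries of a set are alike, though each set pools clones that can differ. The 7 flags in 159 sets are about as many as that rate gives. Of these, 4 came from the third library of ATUX8H: HSP90AA1 at 1620 CPM where the other ATUX libraries had 969 to 1180 CPM, HSPA9 at 681 CPM (others 592 to 621 CPM), PDIA4 at 482 CPM (others 395 to 418 CPM) and, in the other direction, PDIA3 at 319 CPM (others 353 to 369 CPM). In the Sorafenib clones, HSPA2 was low in the first library of Sor6G at 12 CPM (others 16 to 17.3 CPM), DNAJC13 was low in the third library of Sor9H at 170 CPM (others 190 to 200 CPM), and DNAJA4 was high in the second library of Sor9H at 7.53 CPM (others 5 to 5.94 CPM). The calls of HSP90AA1 against Sorafenib were kept when the third ATUX libraries were left out.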

How the results depend on the processing

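Scaling by DESeq2 size factors moved the median of all genes by less than 0.1 on the log2 scale, and no named member changed direction in a call. Of 5127 values of named members under alternatives, 4660 kept their side of the threshold, 251 were no longer called and 216 became called. ATUX against SMAP had 7 member calls in edgeR on clone sums, 11 in DESeq2, 20 in limma-voom and 30 when the 21 libraries were fitted with drug as the factor, and leaving out each clone gave 2 to 6. ATUX against Sorafenib had 26, 49 on the 21 libraries and 8 to 25 with a clone left out (8 without Sor9H, 12 without Sor6G, 13 without ATUX9D). SMAP against Sorafenib had 28, 54 on the 21 libraries and 17 to 30 with a clone left out (17 without Sor9H). With the repeat number as a replicate block on the 21 libraries these counts were 30, 48 and 52. Both kinds of fit with drug as the factor take a clone's 3 libraries as separate replicates of the drug, which they are not. Their counts are therefore too high to be read as differences between drugs. Fits of only the compared libraries called 21 members between ATUX8H and ATUX9D (36 in the joint fit, and 35 without the third library of each) and 38 between SMAP8D and SMAP6G (25). The replicate block gave 37 for the ATUX clones and 26 for the Sorafenib clones; there it added the calls of PDIA4 (adjusted p = 0.0402) and DNAJC10 (adjusted p = 0.039) and changed no other call of a named member. For SMAP clones, whose libraries of equal number correlated at -0.14 to 0.033, it gave 24, 27 and 31. Shares of all genes called under the alternatives are not given here, so their member counts have no background of their own. The cause of the moves between settings was not tested.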
